A study of Mus musculus with 5 samples.

Results

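Clu, the gene of the secreted chaperone clusterin (ENSMUSG00000022037), was 1 of 51912 genes listed in each library. It was chosen by its measured level in these libraries, read both as RSEM's estimated count and as TPM in all 5 and ranked among all genes of each. Levels, ranks and the difference between groups are therefore given as a description, with no test. The libraries were made from total RNA of flash-frozen tissue that the labels call dorsolateral prostate, from 5 male mice aged 7 months. All 5 mice were Ghrflox/flox, with both copies of Ghr, the growth hormone receptor gene, flanked by recombination sites, and all carried 1 copy of the SV40 C3(1) T-antigen transgene (+/0), in which the C3(1) promoter drives the viral oncoprotein in prostate epithelium. All were given tamoxifen (250 mg/kg daily over 5 days), with collection 1 month after dosing ended. The 2 control mice, labelled Tamoxifen-control, had no Cre listed, while the 3 Ghr deletion mice also carried ROSA26Cre-ERT2+/0, a tamoxifen-activated Cre recombinase expressed from a broadly active locus, so that effects of Cre and of Ghr deletion cannot be told apart. The series calls the libraries of each group biological replicates.

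Clusterin is made as a single chain, enters the secretory pathway, is glycosylated and cut into an alpha and a beta chain that stay joined by disulfide bonds, and leaves the cell. Outside the cell it holds unfolding proteins in solution, blocks assembly of the complement membrane attack complex and travels with lipoproteins, for which it is also known as apolipoprotein J. In the male tract it is known as a major product of Sertoli cells and epididymis, and in the prostate its transcript is known to rise in the epithelium when androgen is withdrawn.

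The gene lies on the plus strand of chromosome 14 from 65968483 to 65981547 (GRCm38, GENCODE release M21), and 0 other annotated genes overlap it. Its count pools 9 transcripts: 6 typed as protein coding, 2 as retained introns and 1 as a target of nonsense-mediated decay. Only Clu-201 runs the length of the gene, with 9 exons, 1810 bases and 1344 coding bases, and the other 8 span 558 to 1004 bases. The start of its coding sequence, in exon 2, is shown because it encodes the signal that sends the protein into the secretory pathway; the capitals mark the start codon (chr14:65971759-65971848, plus strand, from GENCODE).
Clu-201 coding start: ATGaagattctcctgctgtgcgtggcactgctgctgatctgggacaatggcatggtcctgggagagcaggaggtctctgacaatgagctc

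The libraries did not look alike as tissue. Total counts were 13812454 to 47656212. The seminal vesicle list, led by Svs2 and Svs5, took 35.6% of counts in control replicate 1, 27.4% and 28.7% in deletion replicates 1 and 2, and 2.78% and 1.43% in control replicate 2 and deletion replicate 3. Pbsn, the prostate-specific probasin gene that checks the labelled tissue, had 411 counts in control replicate 1 and at most 8 in any other library. The small cytoplasmic 7SL RNA genes Rn7s1 and Rn7s2 took 23.2% to 69.7% of TPM (a level per length and relative to all transcripts of the library). CPM, the usual scaling of counts to library size, here with sizes adjusted by edgeR's trimmed mean of M-values (TMM), are the scale used to set libraries side by side. The seminal vesicle shares rested on different members. Svs1 read 78234 and 171 CPM in controls against 6.20, 0.0626 and 9.63 CPM, and Svs4 171213 and 1926 CPM against 713, 1718 and 160 CPM. Svs2 overlapped, at 193471 and 2213 CPM against 191558, 270169 and 1753 CPM, as did Svs5 and Pate4. The other 6 of 9 members were lower in every deletion library, where 10.2% of all genes tested were so. DESeq2 called 6 of the 9 and 0.892% of all genes tested, where edgeR called 0 (adjusted p under 0.05). For Svs1 and Svs4 the 2 controls were themselves far apart, with control replicate 1 the higher. Ghr itself, whose count pools all its exons and so does not isolate a deleted stretch, read 14.4 and 31.3 CPM in controls against 8.13, 20.9 and 12.1 CPM, with overlapping groups (edgeR log2 fold change -0.73, SE 0.515, adjusted p = 0.995).

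Clu was among the most abundant transcripts in 3 of the 5 libraries and ranked much lower, 287th by TPM, in control replicate 1. Control replicate 1 had 271 CPM and control replicate 2 had 15115 CPM. Deletion replicates 1, 2 and 3 had 1438, 14538 and 11234 CPM. The groups overlapped completely, since the lowest and the highest library were both controls, 55.8-fold apart. The deletion libraries ranged 10.1-fold, with deletion replicate 1 below the other two. These levels rested on 6331, 312226, 41021, 464166 and 605261 expected counts in the same order of libraries. As a share of all counts Clu took 0.0133% (95% Wilson interval 0.0130% to 0.0136%) in control replicate 1 and 2.26% (2.25% to 2.27%) in control replicate 2. In deletion replicates 1, 2 and 3 the shares were 0.144%, 1.22% and 1.81%. The intervals treat every read as independent and cover counting error at most. Reads lacking molecular identifiers can be copies of 1 molecule, which would make the intervals too narrow even for that. The intervals are far narrower than the gaps between animals.

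**Figure D1:**
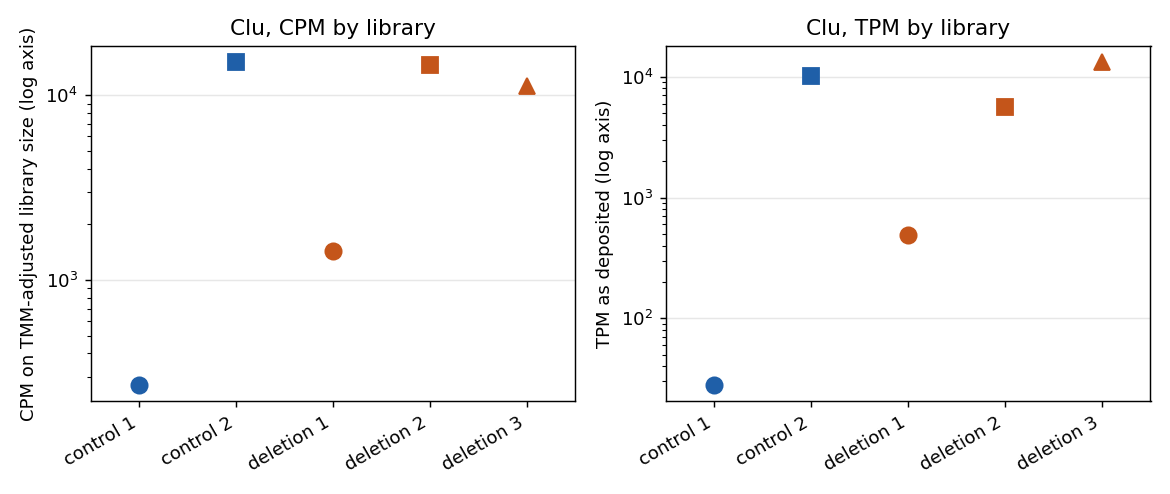
Clu in each library, as CPM on TMM-adjusted library size (left) and as TPM deposited by the authors (right), both on log axes; blue marks are the 2 controls and orange marks the 3 deletion libraries, 1 point per library. Control replicate 1 (271 CPM) and deletion replicate 1 (1438 CPM) lie below the other 3 libraries on both scales.

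In TPM the spread was wider, at 28.2 and 10107 in controls and 489, 5673 and 13240 in deletion mice. Control replicate 1 was lowest and deletion replicate 1 next lowest on both scales. The order of the upper 3 depended on the scale, with control replicate 2 highest in CPM and deletion replicate 3 highest in TPM. With the seminal vesicle list and the 7SL RNA genes taken out and TPM rescaled, Clu had 223 and 22368 in controls and 1950, 14949 and 17653 in deletion mice, a 100.2-fold range against 470-fold before. Control replicate 2 and deletion replicate 2, neighbours at the top in CPM, differed 1.04-fold, and deletion replicate 3 lay 1.29-fold under deletion replicate 2, both smaller than the 10.1-fold spread within the deletion group.

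By TPM, Clu ranked 287th in control replicate 1, 6th in control replicate 2, and 60th, 8th and 6th in deletion replicates 1, 2 and 3. The lowest of these ranks was still within the top 1.33% of the 21552 genes with a TPM above 0 in that library. In control replicate 2, deletion replicate 2 and deletion replicate 3 the gene just above Clu was Pate4, a seminal vesicle secretory protein, at 15280, 20998 and 14454 TPM. The genes just below it there were Gm27187 (8322 TPM), Gm28437 (5429 TPM) and mt-Rnr1, a mitochondrial ribosomal RNA (9974 TPM). In deletion replicate 1 it stood between the ribosomal protein gene Rps24 (491 TPM) and the small nucleolar RNA gene Snora74a (486 TPM). In control replicate 1 it stood between the small nucleolar RNA gene Rnu3a (28.21 TPM) and Apoe, another secreted apolipoprotein (28.14 TPM). Among genes typed as protein coding it ranked 219th and 2nd in controls and 29th, 4th and 2nd in deletion mice, a ranking added after the values were seen. Clu alone made up 3.41% of protein-coding TPM in control replicate 2 and 2.60% in deletion replicate 3, against 0.0117% in control replicate 1.

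**Figure D2:**
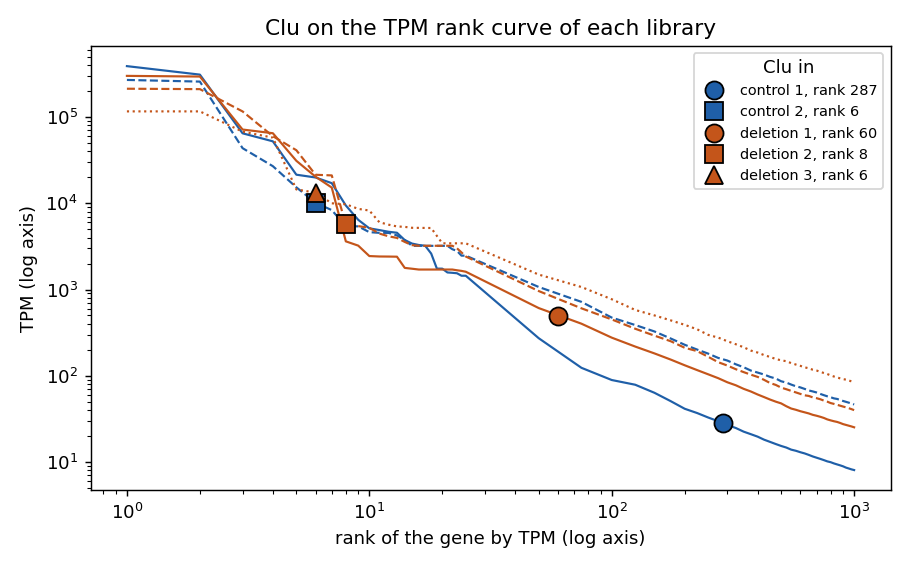
TPM against rank by TPM for the leading 1000 genes of each library, both axes logarithmic; lines are libraries (blue controls, orange deletion; solid replicate 1, dashed replicate 2, dotted replicate 3) and each large mark is Clu in that library. Clu sits at ranks 6, 8 and 6 in 3 libraries, at 60 in deletion replicate 1 and at 287 in control replicate 1.

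Set against Krt18, a keratin of luminal epithelial cells, Clu was less abundant in 1 library and more abundant in the rest. The ratio of Clu to Krt18 in TPM was 0.609 and 36.6 in controls and 2.83, 12.1 and 19.9 in deletion mice. Its ratio to Apoe in TPM was 1.00 and 73.2 in controls and 9.55, 104 and 107 in deletion mice. Both ratios ordered control replicate 1 lowest and deletion replicate 1 next, as the Clu levels did.

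The mean Clu level was 7693 ± 10496 CPM (SD, n = 2) in controls and 9070 ± 6813 CPM (SD, n = 3) in deletion mice. The log2 fold change fitted by edgeR, deletion against control, was 0.24 with an SE of 1.55, far larger than the difference itself. It stood at 5.06 without control replicate 2, at -0.74 without control replicate 1 and at -0.28 without deletion replicate 2, so the sign turned on single libraries. It was also -0.10 on plain library sizes, where the median of all genes moved by 0.22. On the log2(CPM + 1) scale Clu spanned 5.80 between its lowest and highest library, where the median gene tested spanned 0.89, and 99.7% of the 18615 genes tested spanned less. In bulk tissue, fewer cells that express a gene and less of its RNA per cell cannot be told apart.

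The mean length of the transcripts counted as Clu was slightly greater in every deletion library than in both controls, a difference that the number of animals cannot carry past a threshold of 0.05. RSEM gives each gene a length that is the mean of its transcripts weighted by their estimated shares, a measure that the choice of Clu did not use. For Clu it was 1747 and 1708 bases in controls and 1781, 1792 and 1790 bases in deletion mice. The groups did not overlap, and the difference of 60.3 bases between means of 1727 ± 27.8 (SD, n = 2) and 1788 ± 5.87 (SD, n = 3) gave p = 0.1 in a two-sided exact permutation test, the smallest value that 2 against 3 libraries allow. Among the 12389 genes tested whose length varied over libraries, 20.0% did not overlap between the groups and 9.03% were longer in every deletion library, so that such a separation was common. If the lengths of release M21 hold for the authors' annotation, as they did for 97.9% of genes with a single transcript, Clu-201 made up between 87.3% and 91.8% of Clu transcripts in control replicate 2 and between 92.2% and 94.97% in control replicate 1, the bounds taking all other transcripts as the longest or the shortest of the 8. The same bounds were 96.4% to 97.7%, 97.8% to 98.6% and 97.5% to 98.4% in deletion replicates 1, 2 and 3. The nearest bounds across the groups were 94.97% in control replicate 1 and 96.4% in deletion replicate 1. Control replicate 1, where Clu was scarce, and control replicate 2, where it was abundant, both lay below the deletion libraries, so this measure did not follow the level of Clu.

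None of the 12 marker lists ordered the 5 libraries as Clu did in CPM. The luminal epithelium list (Krt8, Krt18, Krt19, Epcam and Cd24a, 5 of 5 members tested) summed to 1382 and 2254 CPM in controls and 1242, 2734 and 2562 CPM in deletion mice. Its lower values came in the 2 libraries with least Clu, though the sum ranged over far less than Clu did. Cd24a, a surface glycoprotein of epithelium, read 634 and 1359 CPM in controls and 598, 1402 and 1528 CPM in deletion mice. Krt18 read 345 and 328 CPM against 384, 907 and 427 CPM, a different order from that of Clu. The part of epithelial content in the level of Clu was not tested.

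Markers of organs next to the prostate moved strongly between libraries. In the epididymis and vas deferens list 2 of 8 members were well expressed, Akr1b7, an aldo-keto reductase of the vas deferens, and Crisp1, a sperm-coating secretory protein. The list summed to 6.20 and 1603 CPM in controls and 5149, 4359 and 34.3 CPM in deletion mice. Deletion replicate 3 had abundant Clu with little of this list, and deletion replicate 1 had the most of this list with the second lowest Clu. The defining epididymal genes Lcn5, Lcn8, Gpx5 and Cst8 had at most 6 counts in any library. Of the Sertoli cell list, Rhox5 had 0 counts in all libraries and Amh and Gata4 at most 3 counts in any. The other 3 members, Sox9, Wt1 and Inha, are also expressed outside the testis, and the list summed to 5.86 to 33.5 CPM, with both controls above the deletion libraries.

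The prostate secretory list summed to 4456 and 139 CPM in controls and 8.55, 29.6 and 161 CPM in deletion mice. Its highest library, control replicate 1, was the lowest in Clu. Almost all of that sum was Spink1, a trypsin inhibitor, at 4390 CPM there and at most 11.2 CPM elsewhere. The order of the sum therefore rested on this gene. Spinkl of the seminal vesicle list fell in much the same way, at 6324 and 18.3 CPM in controls against 0.841, 0.157 and 1.15 CPM. The sum thus cannot be read as a measure of prostate secretion. Pbsn, a far smaller part of the sum, was also highest there, at 17.6 CPM against at most 0.251 CPM elsewhere. Mmp7, a matrix metalloprotease of ductal epithelium in the same list, instead read 12.5 and 126 CPM in controls and 6.27, 27.4 and 159 CPM in deletion mice, low in the 2 libraries with least Clu. The urothelium list summed to 80.0 and 25.2 CPM in controls and 47.0, 68.4 and 187 CPM in deletion mice. Upk1b, a tetraspanin that led the list, read 77.2 and 23.9 CPM against 45.9, 67.1 and 97.8 CPM, and Upk1a reached 26.1 CPM in deletion replicate 3. The uroplakin gene Upk3a was counted 1046 times in deletion replicate 3 and 0 times in the others, so Clu was abundant in control replicate 2 and deletion replicate 2 with this gene undetected.

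The proximal luminal prostate list holds genes known to mark, with Clu, the duct segment next to the urethra. It summed to 123 and 112 CPM in controls and 67.5, 129 and 305 CPM in deletion mice. Psca, a surface antigen of those cells, had 813 counts in deletion replicate 3 and at most 2 in the other libraries. Ly6a, the Sca-1 antigen, read 91.0 and 40.6 CPM against 22.3, 53.9 and 83.6 CPM and was highest in control replicate 1. Krt4 was at or below 2.03 CPM throughout.

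Markers of stroma, vessels, macrophages and basal cells also ordered the libraries in other ways. The smooth muscle list, led in TPM by Acta2 and Tagln, summed to 1785 and 3098 CPM in controls and 4405, 1197 and 2730 CPM in deletion mice. The fibroblast list, led by Dcn and Col3a1, summed to 322 and 518 CPM against 247, 78.8 and 209 CPM. The endothelium list, led by Pecam1 and Vwf, summed to 74.4 and 98.7 CPM against 47.3, 34.0 and 41.6 CPM. The smooth muscle sum was highest in deletion replicate 1 and the fibroblast sum lowest in deletion replicate 2. The macrophage list, led by Lyz2 and C1qa, summed to 61.2 and 94.6 CPM against 42.7, 38.7 and 47.1 CPM. The basal epithelium list, led by Krt5 and Trp63, summed to 86.5 and 63.7 CPM against 51.8, 16.2 and 84.6 CPM. Fibroblast, endothelial and macrophage sums were lower in every deletion library than in both controls, while Clu overlapped. The part of any of these lists in the level of Clu was not tested.

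**Figure D3:**
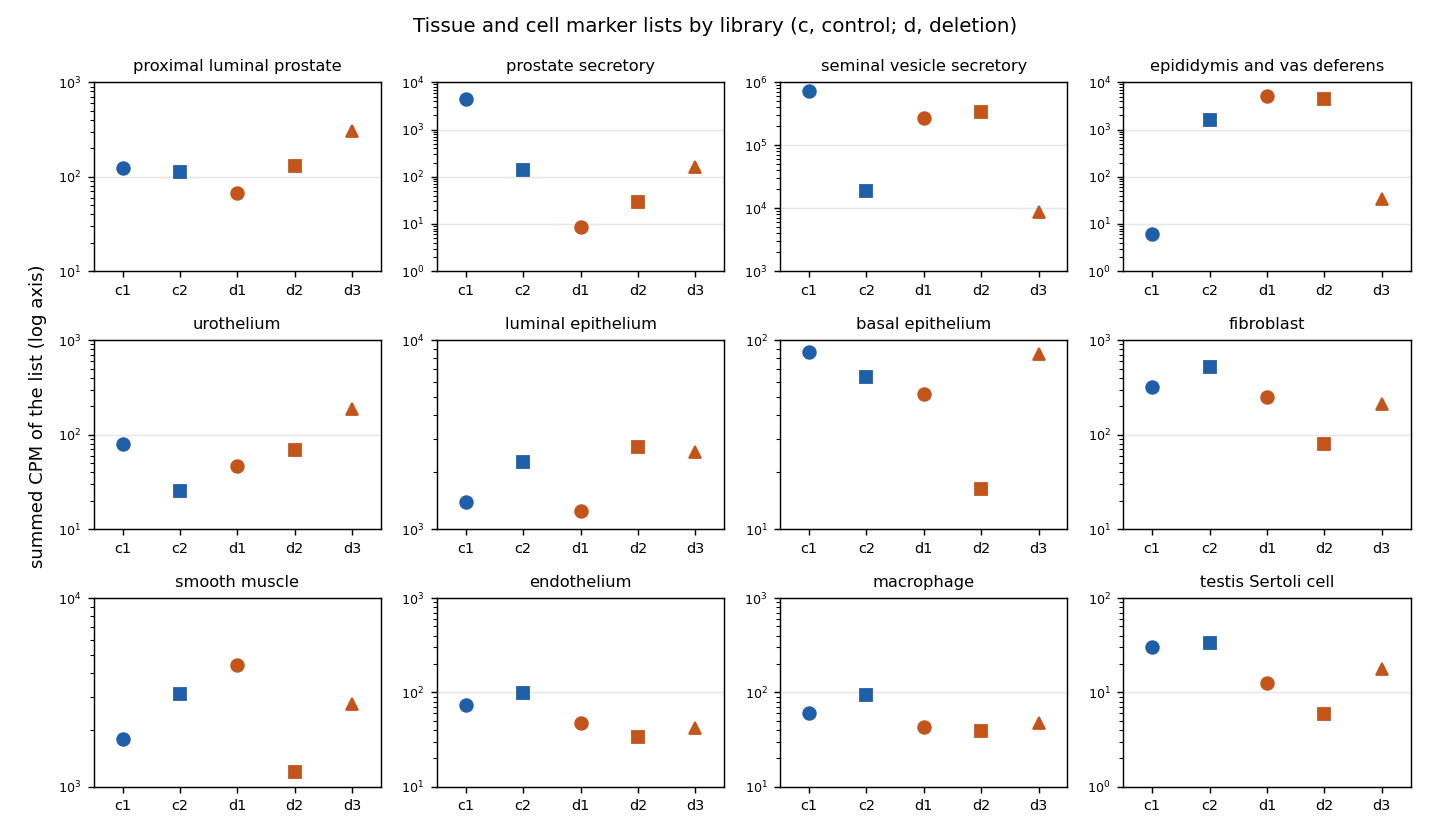
Summed CPM (log axis) of 12 marker lists in the 5 libraries, c for control and d for deletion with the replicate number, 1 point per library; blue is control, orange is deletion. The luminal epithelium list is low in c1 and d1, the libraries with least Clu, while the vas deferens, seminal vesicle, prostate and urothelium lists order the libraries in other ways.

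Across libraries the gene whose pattern was most like that of Clu, among those compared, was its neighbour on the chromosome. Likeness was the root mean square difference in log2(CPM + 1), each gene centred on its mean over the 5 libraries. It was taken for 7870 other tested genes with a mean of at least 10 CPM. Genes without a symbol or with only a provisional one, predicted genes and pseudogenes were left out. Scara3, a scavenger receptor-like gene associated with the response to oxidative stress, had the smallest difference (0.82, where the median gene had 2.32). It read 10.5 and 142 CPM in controls and 40.2, 159 and 187 CPM in deletion mice. As for Clu, control replicate 1 was lowest and deletion replicate 1 next lowest. Scara3 lies on the opposite strand from 65919394 to 65953935, and 14547 bases separate the starts of the 2 genes, which point away from each other. Clu was 53.2 to 228 times as abundant as Scara3 in TPM. The place of Scara3 was also first on plain library sizes and 5th in TPM, and with single libraries left out it was between 2nd (without control replicate 2) and 16th (without deletion replicate 2). These alternatives were added after the values were seen, and 5 libraries give no test.

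The other genes within 100 kb were silent or nearly so. Gulo, the vitamin C synthesis gene 5238 bases past the end of Clu, had at most 4 counts in any library. Adam2, a sperm surface gene, had 3 counts in deletion replicate 3 and 0 elsewhere, and the pseudogene Gm10233 had 0 counts in all 5. The pseudogene Gm19222, which lies between Scara3 and Clu, was not analysed here.

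The next 4 genes by likeness were Bmp3 (0.89), Hpn (0.89), Emb (0.92) and Ltf (1.01). Bmp3, a secreted antagonist of bone morphogenetic protein signalling, read 0.214 and 45.9 CPM in controls and 21.3, 64.7 and 29.8 CPM in deletion mice. Hpn, the membrane serine protease hepsin, read 0.599 and 41.5 CPM against 12.3, 21.9 and 33.7 CPM. Emb, the membrane glycoprotein embigin, read 7.40 and 252 CPM against 89.6, 136 and 225 CPM. All 3 were lowest in control replicate 1 and next lowest in deletion replicate 1. Ltf, the secreted iron-binding protein lactoferrin, had the same 2 libraries lowest, at 3.29 and 88.6 CPM against 22.9, 39.0 and 151 CPM, and peaked in deletion replicate 3. For these 5 genes the groups overlapped, as they did for Clu. Since the 5 were picked for likeness to Clu over these same libraries, the shared low libraries and the overlap follow from the choice.

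**Figure D4:**
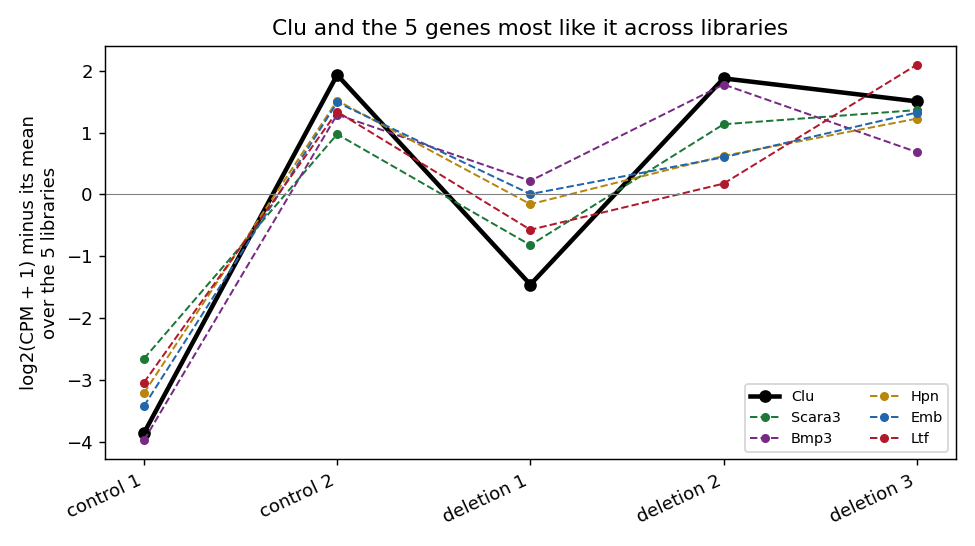
Clu (black) and the 5 genes most like it, as log2(CPM + 1) minus each gene's mean over the 5 libraries; lines only join the points of a gene. Every gene shown is lowest in control 1, which follows from picking genes for likeness, and Clu falls further than the others in deletion 1.

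The genes that clusterin acts with were compared between the groups as 7 partner lists with 63 members, of which 55 passed the filter on low counts. None of the 55 passed the edgeR quasi-likelihood test at a Benjamini-Hochberg adjusted p under 0.05 (0 called; adjusted p of 0.991 to 0.999), and of all 18615 genes 0% passed. At an unadjusted p under 0.05 there were 5 members, where 4.92% of all genes reached that value: 3 members were higher (1.69% of all genes) and 2 lower (3.23%). DESeq2 called 1 member, Hp, where it called 0.892% of all genes. The groups did not overlap for 12 of the 55 members, or 21.8% against 19.6% of all genes tested. Of these, 8 were higher in deletion mice (9.43% of all genes) and 4 lower (10.2%). The members' median log2 fold change was 0.085 and that of all genes tested 0.0045.

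Receptors that bind or take up clusterin were expressed at modest levels. Lrp1, the broad endocytic receptor, was the most abundant in TPM and read 113 and 124 CPM in controls and 118, 40.8 and 78.6 CPM in deletion mice. Vldlr, the very low density lipoprotein receptor, read 32.7 and 37.9 CPM against 37.1, 38.0 and 36.0 CPM, nearly level across libraries in which Clu ranged 55.8-fold. Trem2, a lipid-sensing receptor of macrophages, had 0.564 to 4.73 CPM. Lrp2, the epithelial receptor megalin that internalizes clusterin, read 0.984 and 7.55 CPM in controls and 34.9, 27.2 and 1.78 CPM in deletion mice. It was highest in deletion replicate 1, where Clu was low. Over the 6 receptors the log2 fold change had a median of 0.60, above 0 for 5 and below 0 for 1, and the groups did not overlap for 2 of them, both higher in deletion mice, where 9.43% of all genes tested were so.

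The complement components that clusterin restrains were scarce, and a membrane-bound inhibitor was not. C6, C8a, C8b and C9 of the membrane attack complex did not pass the low-count filter, with at most 20 counts in any library. Cd59a, the cell surface inhibitor of that complex, read 2.82 and 162 CPM in controls and 20.3, 17.9 and 107 CPM in deletion mice. It shared with Clu its lowest library, control replicate 1, and its highest in CPM, control replicate 2, but was low in deletion replicate 2. C8g, of the same complex, had 0.687 to 1.75 CPM. Reads of Cd59b, the near-copy of Cd59a, at 0.0428 to 0.968 CPM, may be split between them. Without control replicate 1, its lowest control, and deletion replicate 3, its highest deletion library, edgeR called Cd59a lower (log2 fold change -3.09, adjusted p = 0.00716). That choice was made with the values in view, it left 1 control whose spread was assumed to be that of the deletion libraries, and the call follows from which libraries were dropped.

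Other extracellular chaperones and apolipoproteins were far less abundant than Clu outside control replicate 1. Apoe, a lipid carrier, read 144 and 140 CPM in controls and 93.4, 93.0 and 67.5 CPM in deletion mice. Sparc, a matrix glycoprotein with chaperone activity, read 63.8 and 69.2 CPM against 43.0, 19.4 and 30.9 CPM. Both had every deletion library below both controls (log2 fold changes -0.75, SE 0.277, and -1.10, SE 0.371; edgeR adjusted p = 0.991 for each), and neither passed. Apod, a lipocalin, read 8.86 and 34.4 CPM against 7.08, 6.11 and 16.4 CPM. Hp, the haemoglobin-binding chaperone haptoglobin, had 6 and 3 counts against 9, 818 and 38 counts. It was called by DESeq2 (log2 fold change 5.50, adjusted p = 0.0368) but not by edgeR (adjusted p = 0.991). That difference lay mostly in deletion replicate 2. A2m, Apoa1 and Pcsk1n fell short of the filter, and Pcsk1n had 0 counts in all libraries.

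**Figure D5:**
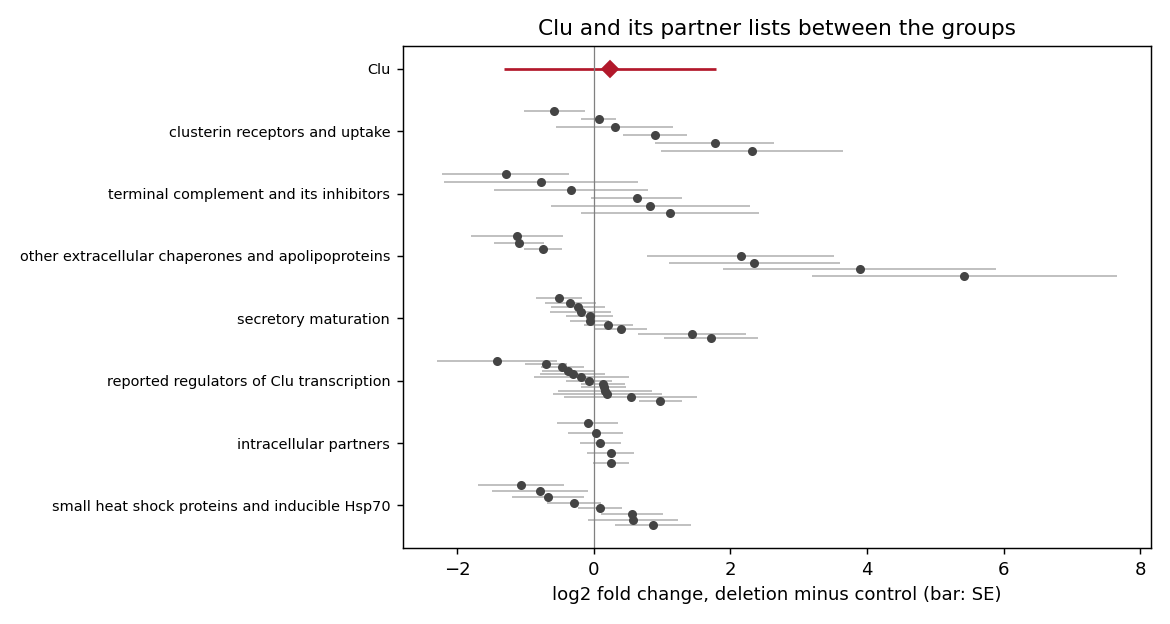
Log2 fold change between deletion and control libraries for Clu (red) and the 55 tested members of 7 partner lists (grey, 1 point per gene), with bars of 1 SE from edgeR. The bar of Clu spans 0 widely, and the 10 secretory maturation genes have a median of -0.06, with Pcsk6 highest among them at 1.72.

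The machinery that folds, glycosylates and cuts secreted proteins varied less than Clu, as did 99.7% of all genes tested. Calr, the lectin chaperone calreticulin, read 714 and 841 CPM in controls and 477, 600 and 757 CPM in deletion mice. P4hb, protein disulfide isomerase, read 1360 and 866 CPM against 864, 1309 and 749 CPM. Hsp90b1, the endoplasmic reticulum chaperone, read 726 and 746 CPM against 635, 713 and 770 CPM. Control replicate 1, with the least Clu, was not low for any of these 3, but other members of the list went both ways. Canx was lowest there, at 467 CPM against 560 to 869 CPM elsewhere, and Hspa5 was highest there, at 891 CPM. Furin, a proprotein convertase of the trans-Golgi, read 39.8 and 36.3 CPM against 33.8, 44.9 and 30.8 CPM. The list's widest member, Pcsk5, spanned 2.37 on the log2(CPM + 1) scale against 5.80 for Clu. The median member spanned 0.84, close to the 0.89 of the median gene tested. Pcsk6, a convertase with 0.770 and 0.775 CPM in controls and 1.82, 4.32 and 1.503 CPM in deletion mice, had the list's smallest p (log2 fold change 1.72, SE 0.689; edgeR adjusted p = 0.991).

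Reported regulators of Clu transcription were present in all libraries, apart from Mycn, which had at most 9 counts. Hif1a, the hypoxia factor, read 184.6 and 92.3 CPM in controls against 96.1, 132 and 90.3 CPM in deletion mice, and Nr3c1, the glucocorticoid receptor, 71.8 and 90.6 CPM against 76.4, 119 and 73.7 CPM. Hif1a was highest in control replicate 1, the library lowest in Clu. Hsf1, the heat shock factor, read 11.7 and 5.62 CPM against 8.90, 5.04 and 7.03 CPM and was highest where Clu was lowest. The immediate early gene Egr1 read 3.51 and 20.7 CPM against 6.45, 36.6 and 9.71 CPM, and Jun 20.6 and 34.8 CPM against 6.20, 53.8 and 35.3 CPM. Both had their low values in the 2 libraries with least Clu. Fos, of the same list, did not, at 4.41 and 12.9 CPM against 0.596, 3.95 and 5.14 CPM. Its second lowest library was deletion replicate 2, where Clu was abundant. Smad3, a relay of transforming growth factor beta, read 28.3 and 27.8 CPM against 44.7, 71.9 and 48.9 CPM (log2 fold change 0.97, SE 0.317; edgeR adjusted p = 0.991), above both controls in every deletion library without passing.

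Intracellular partners stayed within narrow ranges, and stress proteins varied more. Tardbp, an RNA-binding protein that intracellular clusterin can bind, read 97.8 and 114 CPM in controls and 120, 125 and 134 CPM in deletion mice. Commd1, a regulator of NF-kappa-B, had 11.1 to 17.9 CPM, and Xrcc6, the Ku70 protein of DNA end joining, 12.8 to 23.4 CPM. The widest of the 5 intracellular partners spanned 0.96 on the log2(CPM + 1) scale, where the median gene tested spanned 0.89. Among small heat shock proteins, Cryab read 27.7 and 8.57 CPM in controls and 29.4, 39.6 and 11.9 CPM in deletion mice. Hspb1 read 35.1 and 6.54 CPM against 7.25, 11.5 and 17.3 CPM, and Hspb8 11.9 and 28.3 CPM against 36.1, 21.6 and 31.3 CPM. Hspb1 was highest in control replicate 1, the library lowest in Clu. Of the 55 tested partner genes, 0 spanned as wide a range over the 5 libraries as Clu, where 99.7% of all genes tested spanned less.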

How the data were processed

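Total RNA libraries (Illumina TruSeq Stranded Total RNA, per the labels) came from 2 control and 3 deletion mice. Build GRCm38 and, as tools, RSEM 1.3.0, STAR 2.5.3a and bcl2fastq 2.20.422 come from the submitters' processing notes. Annotation release and strand setting: not given in the sources used here. The authors deposited, per the file headers, RSEM's expected counts (not normalized), TPM (relative to length and to all genes) and gene lengths in bases. Symbols matched all but 279 of 51912 IDs. Rounded expected counts of the 5 libraries were fitted in R 4.3.3 with edgeR 4.0.16: filterByExpr (18615 genes), TMM, robust glmQLFit, glmQLFTest on group, Benjamini-Hochberg over all genes, threshold 0.05. TMM factors ranged from 0.491 to 1.61. DESeq2 1.42.0 and limma 3.58.1 (voom) were alternatives. The fit was tested on simulated data with less spread between animals than these libraries had, so that test does not show what the fit can detect here. With 2 controls, spread between animals sets the precision (median SE 0.53 on the log2 scale). Named genes were the 3 partners (2 markers) of highest mean TPM in each list, the 5 genes most like Clu, its neighbours in rank and within 100 kb; others were named after their values were seen. Some genes the rule names are not reported here. Clu, the lists and the tests were chosen with earlier results of these data known.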

Additional observations from a re-analysis of the deposited data

How the results depend on the processing

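The Clu log2 fold change was 0.24 and moved beyond the within-group SD of 2.80 only without control replicate 2 (5.06); leaving out single libraries gave -0.74 to 5.06. Other values were 0.26 with DESeq2 or its size factors, 0.19 with upper-quartile scaling, 0.26 with no filter, 1.54 with limma-voom, 2.61 in TPM, 1.84 in rescaled TPM, -0.10 on plain library sizes and -0.92 without control replicate 1 and deletion replicate 3 (chosen after seeing the data). The replicate block gave 1.18 and called 8 genes, none of them partner genes. The replicate numbers are not said to pair animals and were not taken to. Same-numbered libraries had correlated deviations of 0.131 and -0.136. As 2 controls deviate from their mean as mirror images, these values cannot show whether animals were paired. Over all genes edgeR called 0, DESeq2 166, plain library sizes 46, single libraries left out 0 to 48 (48 with control replicate 2 out, 2 with deletion replicate 3 out) and 85 where control replicate 1 and deletion replicate 3 were both out. Partner genes called were 1 by DESeq2 (Hp), 1 on plain library sizes (Hp) and 1 without control replicate 1 and deletion replicate 3 (Cd59a; 1 control left, assumed to vary like the deletion libraries), otherwise 0; the cause was not tested. Ranks by expected count were 269, 4, 29, 8 and 3 (controls 1 and 2, then deletion 1, 2 and 3), without seminal vesicle genes and genes under 200 bases of effective length 215, 2, 29, 2 and 2, and among protein-coding genes 219, 2, 29, 4 and 2. The length difference was 40.6 to 80.0 bases with single libraries left out and 61.0 bases in effective length.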

Other observations

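The genes in places 6 to 10 by likeness to Clu had the same low libraries, which follows from picking them for that likeness. Rprm, a p53-induced cell cycle gene, read 0.513 and 47.2 CPM in controls and 3.75, 9.58 and 44.9 CPM in deletion mice. Ces1d, a carboxylesterase, read 31.9 and 581 CPM against 480, 1013 and 989 CPM, and Pde1c, a cyclic nucleotide phosphodiesterase, 0.984 and 20.8 CPM against 4.63, 19.4 and 9.95 CPM. Mgst1, a membrane glutathione transferase, read 17.6 and 134 CPM against 71.5, 249 and 200 CPM, and Muc20, a membrane mucin, 0.642 and 82.1 CPM against 14.5, 17.2 and 96.5 CPM. All 5 were lowest in control replicate 1 and next lowest in deletion replicate 1.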
